A study of Mus musculus with 13 samples.

Results

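Zp1, Zp2 and Zp3, the 3 zona pellucida glycoprotein genes of the mouse, were followed through ribosome profiling (Ribo-seq) of oocytes and through an RNA immunoprecipitation for N4-acetylcytidine (acRIP-seq). They were found by mapping the Ensembl identifiers of the deposited tables to mouse symbols, and each of the 3 symbols matched 1 of the 22442 genes listed for the Ribo-seq libraries. In Ribo-seq, RNA outside translating ribosomes is digested, and the remaining ribosome-protected fragments (RPFs) are counted on the coding sequence (CDS) of each gene. The study asked how the acetyltransferase NAT10 acts in the oocyte. It profiled 3 libraries of WT and 3 of Nat10-ZcKO oocytes at the GV stage (germinal vesicle, the fully grown oocyte before meiosis resumes), and 2 of WT and 3 of Nat10-ZcKO oocytes at MII (arrest at the second meiotic metaphase, the egg ready for fertilization). Each library came from about 100 pooled oocytes.

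Nat10-ZcKO stands for Nat10 lox/-; Zp3-Cre females, in which exons 4 and 5 of Nat10 are removed in growing oocytes of primary follicles and stay in the somatic cells. The Cre is driven by regulatory sequence of Zp3, so the driver belongs to the gene family described here. All mice were of the C57BL/6J background, and oocytes were taken from hormone-primed females of about 21 days of age. The series text names a tamoxifen injection for 3 days for WT and knockout Ribo-seq samples alike, a step that the methods do not give for Zp3-Cre mice. For acRIP-seq there is 1 library with anti-ac4C and 1 with anti-IgG, made from pools of about 2000 WT GV oocytes of C57BL/6J mice. Whether each antibody had its own pool is not stated in the methods. The methods say in general that experiments had biological replicates, but neither they nor the labels tie these libraries to separate animals, so p-values measure the spread between these libraries, which may be partly technical.

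The zona pellucida is the glycoprotein coat that surrounds the mammalian egg. In the mouse it is built from ZP1, ZP2 and ZP3, which the growing oocyte makes and secretes. Each carries a signal peptide, a ZP domain through which the proteins polymerize, and a tail that is cut off at the cell surface. ZP2 and ZP3 alternate along the filaments and ZP1 cross-links them. ZP2 is the ligand for sperm, and its cleavage by ovastacin after fertilization keeps further sperm out. Transcription of all members depends on the oocyte factor FIGLA, which binds E-boxes in their promoters with a bHLH partner. Their mRNAs are known as abundant messages of the growing oocyte that are degraded during meiotic maturation.

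In GRCm38, with the GENCODE M21 annotation, Zp1 (ENSMUSG00000024734.8) lies on the minus strand of chromosome 19 from 10914287 to 10920632. Its transcript with the longest CDS has 12 exons and encodes 623 residues. Zp2 (ENSMUSG00000030911.7) lies on the minus strand of chromosome 7 from 120126772 to 120145291, with 18 exons and 713 residues. Zp3 (ENSMUSG00000004948.12) lies on the plus strand of chromosome 5 from 135980099 to 135988624, with 8 exons and 424 residues. No other annotated gene overlaps any of them. All 3 messages end soon after the stop codon: the 3′UTR had 34 bases in Zp1, 49 in Zp2 and 13 in Zp3, where the median over all genes listed was 703 bases and 7.84% to 9.93% of genes had a shorter one. The CDS of Zp1 and Zp3 shared none of their 25-base words with transcripts of other genes. Zp2 shared 19 of 2118 with Gm49596, so its counts could hold few misplaced fragments.

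The sequence around the start codon is shown because RPFs report translation of these messages. Each line is 30 bases of the transcript, 5′ to 3′, with the start codon in capitals.
Zp1: gggacctccatcATGgcctggggttgtttt
Zp2: gtaccttccaacATGgcgaggtggcagagg
Zp3: ccaggcgggaccATGgcgtcaagctatttc
In each the start codon was followed by G, the base known to favour initiation at that place.

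Of the 3 members only Zp3 has an entry in the RefSeq promoter table used here (build GRCm38.p6). Its promoter is shown because the 3 genes moved together between libraries. The 244 bases that end just before the annotated start, chr5:135979855-135980098 on the plus strand, are printed with matches to the E-box CANNTG and to the TATA motif in capitals.
Zp3: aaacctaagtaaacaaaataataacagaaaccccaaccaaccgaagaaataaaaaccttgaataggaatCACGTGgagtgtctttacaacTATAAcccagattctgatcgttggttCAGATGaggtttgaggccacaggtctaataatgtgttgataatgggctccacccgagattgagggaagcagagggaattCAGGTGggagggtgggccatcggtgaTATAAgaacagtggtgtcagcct
Both strands were searched for any E-box, for the E-box with CG as its middle bases (CACGTG, a special case of the general motif) and for the TATA motif, taken as TATAA. The E-box of this special kind began 175 bases before the start, and the other E-boxes began 128 and 49 bases before it. Of 32851 RefSeq promoter windows of the same length, 5.82% held the special kind, 65.6% held any E-box and 22.5% held the TATA motif. A match is a description of letters only.

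The libraries held 4815 to 279464 RPF counts, so a count of 0 allows up to 10.7 to 623 CPM (counts scaled to a fixed library total), taking 3 counts as the limit. These limits, and the exact intervals used throughout, cover counting error only. Of the 11 libraries, 3 stood apart from their labels. A list of 16 other oocyte genes took 2.94% to 8.80% of counts in 8 libraries, but 0.0260% in Nat10-ZcKO GV replicate 1, 1.56% in Nat10-ZcKO GV replicate 2 and 0.187% in WT MII replicate 2. In Nat10-ZcKO GV replicate 1, 10 of the 16 were at 0, Gdf9, Bmp15, Zar1 and Mos among them. There 13 of 13 adipocyte markers had counts and took 1.52% of the library, against 0.302% in Nat10-ZcKO GV replicate 2 and 0.0163% to 0.0255% in the 8 libraries. Smooth muscle markers took 0.406% and 0.106% in these GV libraries and 0.00816% to 0.0952% in the 8, and granulosa and cumulus markers 1.15% and 0.348% against 0.249% to 0.632%. WT MII replicate 2 held counts on 523 genes only. The part of these markers in the results below was not tested; the tests of the 3 zona genes are given with these 3 libraries and without them. Nat10 itself had 1 to 11 RPF counts in every library (3 to 11 in WT GV, 1 to 5 in Nat10-ZcKO GV), too few to check the labels.

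In WT GV oocytes the zona genes were among the most heavily footprinted genes. Together they took 2.07%, 2.74% and 2.82% of all RPF counts in replicates 1 to 3. Per length of CDS (TPM, the level per kb scaled to a fixed sum in each library), the level of Zp3 was 8175, 10164 and 11101, that of Zp2 5059.8, 7479.6 and 7457, and that of Zp1 2611, 3165 and 3332. The ranges of neighbours in this order did not overlap, so Zp3 lay above Zp2 and Zp2 above Zp1 in every WT GV library. By TPM, Zp3 held place 7, 8 and 7 among 22359 genes with a CDS length, Zp2 place 11, 10 and 11, and Zp1 place 31, 27 and 25. The mean levels were 9813 ± 1494 TPM (SD, n = 3) for Zp3, 6666 ± 1391 for Zp2 and 3036 ± 377 for Zp1.

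Within a library the ratio between members needs no scaling. In WT GV the Zp2 level per length was 1.94, 2.36 and 2.24 times that of Zp1, and the Zp3 level was 3.13, 3.21 and 3.33 times that of Zp1. The Zp3 level was 1.62, 1.36 and 1.49 times that of Zp2. Of the summed per-length level, Zp3 made up 48.8% to 51.6%, Zp2 31.9% to 35.9% and Zp1 15.2% to 16.5%. ZP1, the cross-linker, was thus the least footprinted of the 3. On raw counts, without division by length, the order of Zp2 and Zp3 turned, with Zp2 higher in each WT GV library, so the order of these 2 rests on the length taken.

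**Figure D1:**
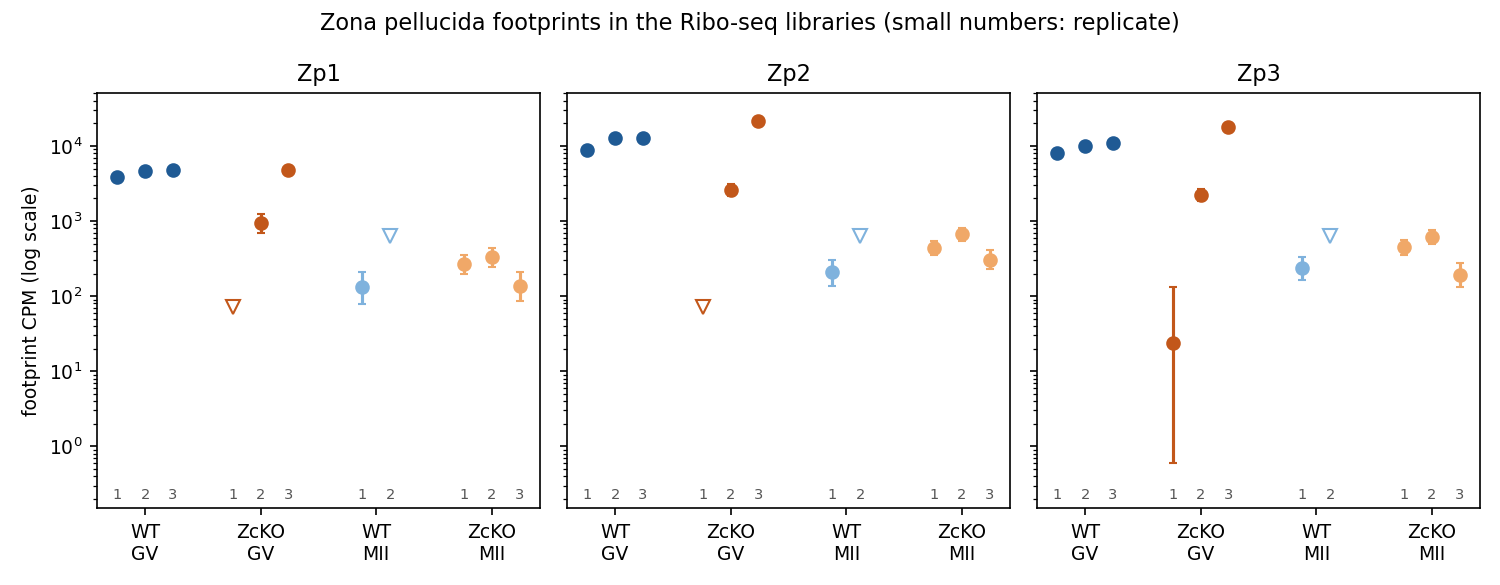
RPF counts of Zp1, Zp2 and Zp3 in each Ribo-seq library, in CPM on a log scale, with exact 95% intervals; open triangles mark the limit that a count of 0 allows, and the small numbers are replicates. The 3 WT GV libraries lie above every MII library for each gene, and the Nat10-ZcKO GV libraries spread from a count of 0 or 1 to 4749 CPM for Zp1, inside the WT GV range, and to 21329.8 and 17710.5 CPM for Zp2 and Zp3, the highest values of these genes.

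Between GV and MII the zona genes lost nearly all of their RPFs in WT, as read from WT MII replicate 1. Zp1 had 3849.7, 4627 and 4816 CPM in the WT GV libraries, 133 CPM (18 counts) in WT MII replicate 1 and 0 counts in WT MII replicate 2. Zp2 had 8710.1, 12767 and 12586 CPM in WT GV against 208 CPM (28 counts) and 0. Zp3 had 8133, 10026 and 10828 CPM in WT GV against 237 CPM (32 counts) and 0. The groups did not overlap for any of the 3, which also held for 52.2% of the 2045 genes tested. CPM are shares of a library, and RPFs alone do not tell less mRNA from less translation of it. The 16 oocyte markers took 5.10% to 6.83% of counts in WT GV and 4.43% in WT MII replicate 1. The cause of the fall was not tested. Against WT MII replicate 1 the mean of WT GV was 33.2-fold higher for Zp1, 54.7-fold for Zp2 and 40.7-fold for Zp3. WT MII replicate 2 is shallow and held 9 counts on the 16 oocyte markers, too few for a ratio to them. Its 0 counts of the zona genes therefore say little about the fall. Its limit of 623 CPM is 3 counts in that library. The lowest WT GV library was at least 6.18-fold (Zp1), 14.0-fold (Zp2) and 13.1-fold (Zp3) above that limit.

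With all 5 WT libraries, edgeR's quasi-likelihood test gave a log2 change from GV to MII of -5.37 ± 2.59 (SE) for Zp1, -6.14 ± 2.93 for Zp2 and -5.73 ± 2.83 for Zp3. The adjusted p-values were 0.204, 0.203 and 0.209, and the unadjusted ones 0.0381, 0.0364 and 0.0427. None of the 3 was called there, in a fit that called 6 of 2045 genes (0.293%), all 6 higher in MII. Scaled by library size only, the same fit called 997 genes, 343 higher and 654 lower, and all 3 zona genes with adjusted p-values of 0.00682 to 0.0113; DESeq2 called 16.6% of genes and all 3 zona genes. Without WT MII replicate 2, edgeR gave -4.96 ± 0.36 for Zp1, -5.67 ± 0.41 for Zp2 and -5.25 ± 0.38 for Zp3, each with an adjusted p-value of 3.67e-08. All 3 fell in that fit, where 44.8% of the genes tested were called, 23.9% lower and 20.9% higher in MII, and the median change of all genes was -0.35. They held places 188, 170 and 183 among 3264 genes ordered from the most negative change. That fit has 1 WT MII library, which is assumed to vary like the WT GV libraries.

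The Nat10-ZcKO GV libraries differed from each other by more than any other group. Zp1 had 0 counts, 948 CPM (49 counts) and 4749 CPM (1316 counts) in replicates 1 to 3. Zp2 had 0 counts, 2611 CPM (135 counts) and 21329.8 CPM (5911 counts). Zp3 had 1 count, 2224 CPM (115 counts) and 17710.5 CPM (4908 counts). Replicate 3 was above the whole WT GV range for Zp2 and Zp3 and inside it for Zp1, while replicates 1 and 2 were below it for all 3. The 1 count of Zp3 in replicate 1 gives 23.6 CPM with an exact 95% interval of 0.598 to 132 CPM. The share of all counts on the 3 genes was 0.00236%, 0.578% and 4.38%, in the same order as the share of the other oocyte genes (0.0260%, 1.56% and 8.80%).

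Set against the other oocyte genes, the spread between Nat10-ZcKO GV replicates 2 and 3 was smaller. Per 100 counts on the 16 oocyte markers, Zp1 had 7.54, 6.79 and 7.05 counts in WT GV, and 6.06 and 5.40 in Nat10-ZcKO GV replicates 2 and 3. Zp2 had 17.1, 18.7 and 18.4 in WT GV, and 16.7 and 24.2 in these 2 libraries. Zp3 had 15.9, 14.7 and 15.8 in WT GV, and 14.2 and 20.1. Replicate 2 was thus just under the WT GV range for all 3 genes, although its CPM values were 4.34-fold to 4.68-fold under the WT GV mean. Replicate 1 had 11 marker counts in all, too few for a ratio. Padi6, which codes for a protein of the cytoplasmic lattices, is the marker with the most counts; without it replicate 2 was at 8.01, 22.1 and 18.8 per 100, replicate 3 at 10.8, 48.5 and 40.3, and WT GV at 11.5 to 12.2, 27.5 to 31.7 and 24.9 to 26.8 for Zp1, Zp2 and Zp3. Replicates 2 and 3 then lay farther apart. Replicate 2 was farther under the WT GV range for all 3 genes, so its closeness to WT GV rests on Padi6. Zp2 and Zp3 of replicate 3 were above every WT GV library with and without Padi6.

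**Figure D2:**
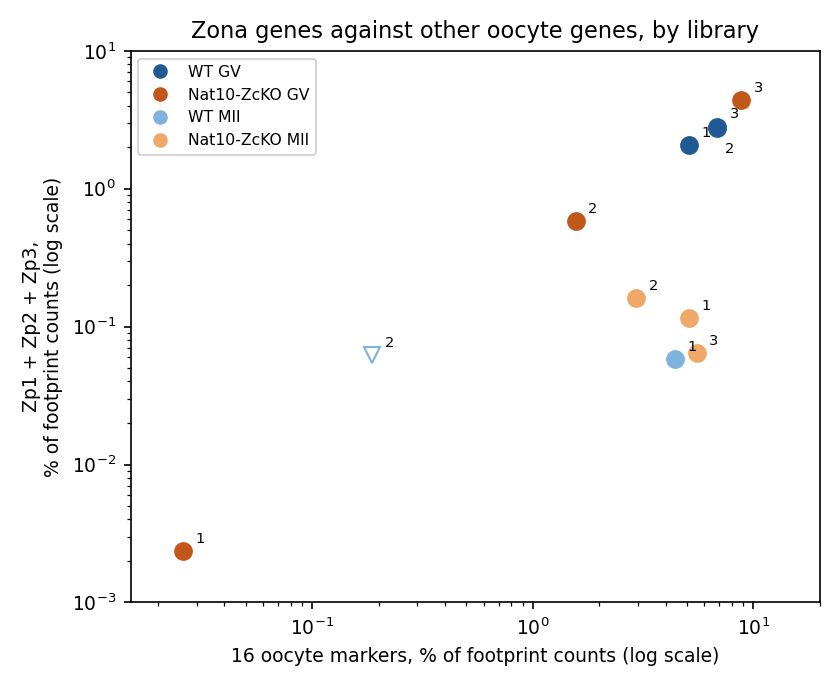
Share of RPF counts on Zp1, Zp2 and Zp3 together against the share on 16 other oocyte genes, per Ribo-seq library, in percent on log scales; numbers are replicates and the open triangle marks the limit of a count of 0. The GV libraries run from 0.00236% at a marker share of 0.0260% to 4.38% at 8.80%, and the MII libraries with zona counts lie at 0.0578% to 0.162% while their marker shares are 2.94% to 5.53%.

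Comparing genotypes at GV, with all 6 libraries, the log2 change from WT to Nat10-ZcKO was -1.02 ± 1.43 for Zp1, -0.31 ± 1.67 for Zp2 and -0.34 ± 1.53 for Zp3. The adjusted p-values by edgeR were 0.908, 0.960 and 0.952, and 0 of 1765 genes (0.0%) were called in this fit, 93 of them at an unadjusted p under 0.05, while DESeq2 called 13 genes (0.547%) and no zona gene. Among the Nat10-ZcKO GV libraries the zona share ran in the same order as the marker share. Leaving libraries out by marker share therefore kept the one with the highest zona share. A turn in direction is then not independent of that choice. The direction turned when Nat10-ZcKO GV replicates 1 and 2 were left out. Zp2 was then 1.12 ± 0.23 higher on the log2 scale in Nat10-ZcKO (adjusted p = 0.00369) and Zp3 1.08 ± 0.23 higher (adjusted p = 0.00434), while Zp1 was at 0.30 ± 0.25 (adjusted p = 0.625). In that fit 2.01% of 3879 genes were called, 0.98% higher, and the Nat10-ZcKO side is the single replicate 3. The WT GV libraries alone supply the spread, so the test sets that library against WT and assumes that it varies like them. Scaled by library size only, the changes of Zp2 and Zp3 were 0.90 and 0.86 and neither was called (adjusted p = 0.111 and 0.126); DESeq2 on the same libraries called both.

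The make-up of the zona counts also differed in Nat10-ZcKO GV replicate 3. There the Zp2 level per length was 3.85 times and the Zp3 level 5.53 times that of Zp1, above all WT GV libraries. The Zp3 to Zp2 ratio was 1.44, inside the WT GV range. In replicate 2 the Zp2 to Zp1 ratio was 2.36 and the Zp3 to Zp1 ratio 3.48. The higher ratios to Zp1 were thus seen mainly in 1 library.

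**Figure D3:**
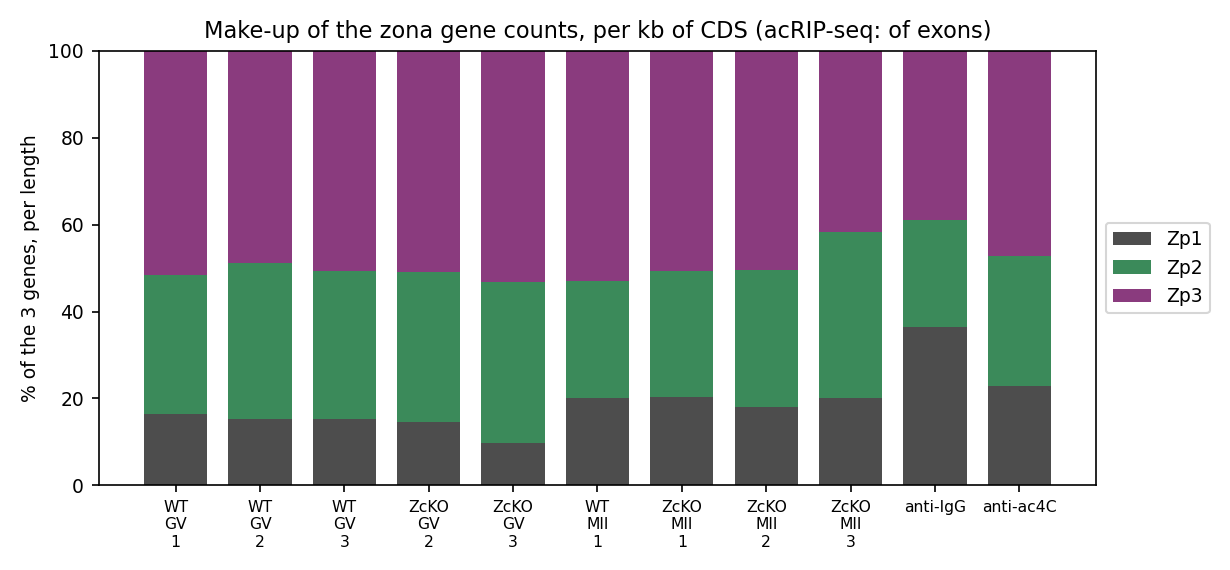
Share of each gene in the summed per-length level of Zp1, Zp2 and Zp3, in percent, for every library with at least 50 zona counts (RPF counts per kb of CDS, acRIP-seq counts per kb of exon). Zp1 takes 15.2% to 16.5% in WT GV, 9.64% in Nat10-ZcKO GV replicate 3 and more than in any WT GV library in each MII library, at most 20.4%.

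In Nat10-ZcKO oocytes the zona genes also had few RPFs at MII. Zp1 had 266, 327 and 138 CPM in the Nat10-ZcKO MII libraries, on 50, 48 and 22 counts. Zp2 had 442, 668 and 307 CPM and Zp3 447, 620.2 and 194 CPM. Against these, Nat10-ZcKO GV replicate 3 was 19.5-fold higher for Zp1, 45.2-fold for Zp2 and 42.1-fold for Zp3, while Nat10-ZcKO GV replicate 1 was below every Nat10-ZcKO MII library.

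With all 6 Nat10-ZcKO libraries, the log2 change from GV to MII by edgeR was -3.57 ± 1.48 for Zp1, -4.69 ± 1.88 for Zp2 and -4.61 ± 1.76 for Zp3, with adjusted p-values of 0.102, 0.0939 and 0.0821. None was called, in a fit that called 16.5% of 2225 genes. DESeq2 called Zp1 (adjusted p = 0.0492) and Zp3 (0.00721) but not Zp2 (0.160), among 16.3% of genes. Without Nat10-ZcKO GV replicates 1 and 2 the changes were -4.62 ± 0.48, -5.82 ± 0.56 and -5.74 ± 0.55, with adjusted p-values of 5.2e-19, 2.27e-22 and 1.47e-22. All 3 fell in that fit, where 38.6% of 3741 genes were called, 19.6% lower and 19.0% higher, and the median of all genes was 0.11. Zp2 and Zp3 held places 26 and 28 from the most negative change and Zp1 place 78. The GV side is then 1 library, assumed to vary like the MII libraries. It was kept for its marker share and is also the highest in zona share, so the size of the fall is not independent of that choice. Leaving out Nat10-ZcKO GV replicate 1 alone also brought all 3 past the threshold (adjusted p = 0.00929 to 0.00941 by edgeR), and leaving out replicate 3 brought the changes down to -0.75, -1.24 and -1.22.

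At MII no member passed the test between genotypes. Against WT MII replicate 1, the Nat10-ZcKO MII mean was 1.83-fold higher for Zp1, 2.27-fold for Zp2 and 1.77-fold for Zp3. For Zp3, Nat10-ZcKO MII replicate 3 (194 CPM) was below WT MII replicate 1 (237 CPM), and for Zp1 the closest libraries were at 138 and 133 CPM. For Zp2 all 3 Nat10-ZcKO MII libraries (442, 668 and 307 CPM) were above WT MII replicate 1 (208 CPM). By CPM the groups did not overlap for Zp1 and Zp2, which held for 30.0% of 2097 genes. The limit of WT MII replicate 2 lies above nearly all of these values, so that library tells nothing of the difference. The log2 change from WT to Nat10-ZcKO was 0.996 ± 1.01 for Zp1, 1.49 ± 1.27 for Zp2 and 1.12 ± 1.18 for Zp3 (adjusted p = 0.997 each by edgeR, 0.191% of 2097 genes called). Without WT MII replicate 2 it was 0.76 ± 0.59, 1.09 ± 0.54 and 0.71 ± 0.53 (adjusted p = 0.9998, 0.888 and 0.9998, unadjusted p = 0.198, 0.0451 and 0.180 by edgeR, 0.205% called), with 1 WT library. A higher level in Nat10-ZcKO MII was therefore not established for any member.

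The test of whether the genotype effect differed between stages, over all 11 libraries, gave an interaction of 2.81 ± 2.44 for Zp1, 2.44 ± 2.63 for Zp2 and 2.10 ± 2.58 for Zp3 on the log2 scale. The edgeR adjusted p-values were 0.789, 0.814 and 0.819, with 0.802% of 3863 genes called. The median interaction of all genes was 1.04 with TMM scaling, 0.15 with library size only and 0.36 with TMM scaling without the 3 libraries. The values are to be read relative to these shifts. In the fit without the 3 libraries, WT MII and Nat10-ZcKO GV are 1 library each. Without the 3 libraries the interaction was 0.52 ± 0.64, 0.03 ± 0.63 and -0.31 ± 0.69, where edgeR and DESeq2 called 0 genes (288 genes at an unadjusted p under 0.05 by edgeR).

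**Figure D4:**
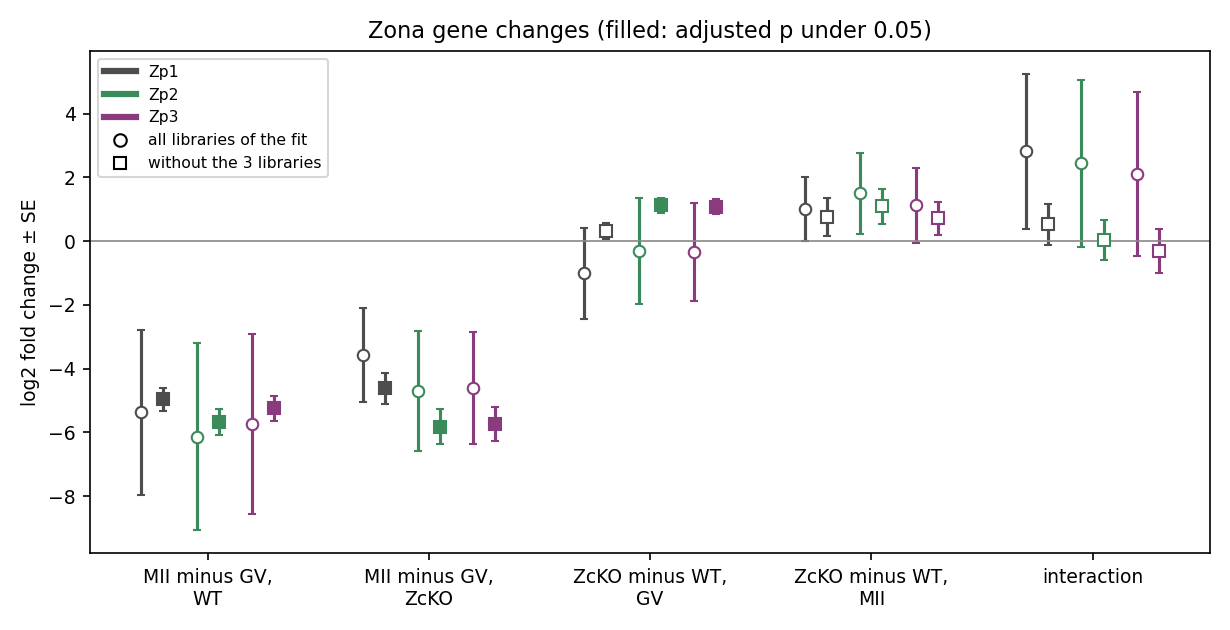
Log2 fold changes of Zp1, Zp2 and Zp3 with standard errors by edgeR, for the stage change in each genotype, the genotype change at each stage and their interaction. Circles use all libraries of a comparison and squares leave out the 3 libraries low in oocyte markers; filled symbols have an adjusted p-value under 0.05. The stage changes lie between -3.57 and -6.14 in both fits, while the GV genotype change crosses 0 when the libraries are left out.

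Within the zona counts of MII libraries, Zp1 held a larger share than at GV. The Zp2 to Zp1 ratio per length was 1.33 for WT (MII replicate 1) and 1.42, 1.75 and 1.91 for the Nat10-ZcKO MII libraries, all under the lowest WT GV value of 1.94. The Zp3 to Zp1 ratio was 2.63 and then 2.49, 2.81 and 2.09, all under the lowest WT GV value of 3.13. These ratios rest on 18 to 98 counts a gene and no interval was computed for them. Whether the larger share of Zp1 exceeds counting error was not tested. The order Zp3 over Zp2 over Zp1 was kept within each of these 4 libraries, but across libraries their TPM ranges overlapped, at 91.6 to 234 for Zp1, 122 to 409 for Zp2 and 196 to 658 for Zp3.

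The members had closely alike profiles. Over all 11 libraries, the 3 that stood apart included, Pearson's r of log2 CPM was 0.997 between Zp1 and Zp2 and 0.993 between Zp3 and either. Among 3863 genes the closest others were Col9a3, nearer to Zp1 and to Zp2 than Zp3 was (r = 0.994 with Zp1, 0.996 with Zp2 and 0.992 with Zp3), a collagen gene, then Izumo1r and Fbxw24 for Zp1 and Zp2, and Gm813 and Tubb2a for Zp3, with r of 0.987 to 0.989. Izumo1r codes for JUNO, the egg's receptor for sperm IZUMO1. Col9a3 had 313 RPF counts in all, and Izumo1r 606. The 11 points share the stage contrast and the 3 libraries that stood apart, so these values describe the series and not a link between genes.

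Other genes of the zona's biology were taken from lists fixed by name, and only genes that passed the filter on low counts could be called. In the fits without the libraries that stood apart, 44.8% of all genes tested were called in the WT stage comparison (20.9% higher, 23.9% lower) and 38.6% in the Nat10-ZcKO one (19.0% higher, 19.6% lower), and the counts of each list are to be read against these shares. Of 9 transcription factors known to act on zona genes or in early oocytes, 5 passed in the WT stage comparison without WT MII replicate 2. Figla, Nobox and Lhx8 were lower in MII, while Gata4 was at 1.21 and Tcf3 at -0.19. The median change was -4.68 where that of all genes was -0.35. Figla, Nobox and Lhx8 passed the filter on low counts through their WT GV counts alone. Their direction, and the median, are therefore not independent of the filter. Nobox, a homeobox factor of early follicles, had 41, 133 and 50 counts in WT GV, 2 in WT MII replicate 1 and 0 in WT MII replicate 2, and changed by -4.68 ± 0.60 (adjusted p = 1.23e-05 by edgeR). Figla had 7, 11 and 18 counts in WT GV and 0 in both WT MII libraries; its fitted change (adjusted p = 0.0219) is no bound. In Nat10-ZcKO, without GV replicates 1 and 2, Nobox and Lhx8 fell (-4.91 ± 0.56 and -4.30 ± 0.59) and Gata4, a factor of somatic follicle cells, rose by 3.21 ± 1.13 (adjusted p = 0.0157). With all libraries 0 of the 2 (WT) and 0 of the 3 (Nat10-ZcKO) factors tested were called by edgeR.

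Among 17 genes of secretion and protein processing, 12 passed in the WT stage comparison without WT MII replicate 2, where 4 fell and 1 rose with a median of -0.43, a share called close to the 44.8% of all genes. With all WT libraries edgeR called 0 of 10. Those that fell were the chaperones Calr (-2.00 ± 0.29) and Hspa5 (-0.86 ± 0.26), the disulfide isomerase Pdia3 (-1.39 ± 0.31) and Ddost (-2.19 ± 0.44), a subunit of the oligosaccharyltransferase. Pcsk5, a proprotein convertase, rose by 5.48 ± 0.48 (adjusted p = 2.58e-07 by edgeR). It had 1, 3 and 1 counts in WT GV and 59 in WT MII replicate 1. The same 5 genes were called with the same signs in Nat10-ZcKO without GV replicates 1 and 2, among 13 tested. There the fit of all 6 libraries also called Pcsk5 (4.89 ± 0.96) and Ddost (-2.36 ± 0.75), with adjusted p-values of 0.0145 and 0.0486. Calr, the gene of the list with the most RPFs, was at 414, 1015 and 374 counts in WT GV and at 109 in WT MII replicate 1.

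Of 12 genes for zona hardening and gamete recognition, 7 passed in the WT stage comparison without WT MII replicate 2, where 4 fell and 1 rose with a median of -1.55, beside 23.9% lower and 20.9% higher among all genes. Izumo1r fell by 4.11 on the log2 scale (SE 0.46). Astl, which codes for ovastacin, the protease that cleaves ZP2, fell less, by 1.66 (SE 0.28, adjusted p = 0.000168 by edgeR). Its counts were 381, 892 and 320 in WT GV and 122 in WT MII replicate 1. Cd9, a tetraspanin needed for gamete fusion, changed by -2.26 ± 0.50 and Fetub, whose product inhibits ovastacin, by -1.11 ± 0.40, while the protease gene Ctsl rose by 0.79 ± 0.25. In Nat10-ZcKO without GV replicates 1 and 2, Astl, Izumo1r, Cd9 and Fetub fell, 4 of 6 tested. With all libraries edgeR called 0 of the 6 (WT) and 0 of the 4 (Nat10-ZcKO), and at GV and at MII it called 0 genes of these 3 lists between genotypes, with or without the 3 libraries.

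The other proteins with a ZP domain, or named after it, went both ways. Of 12 listed, 4 passed in each stage comparison without the 3 libraries, and 2 rose and 1 fell in each, where 44.8% (WT) and 38.6% (Nat10-ZcKO) of all genes were called. With all libraries edgeR called 0 of 3 in WT and 1 of 2, Oosp3, in Nat10-ZcKO. Oosp2, an oocyte-secreted protein, had 86, 127 and 62 counts in WT GV and 2 in WT MII replicate 1, a change of -5.09 ± 0.56. Its paralogs Oosp1 and Oosp3 rose, by 3.20 ± 0.25 and 3.15 ± 0.36 (adjusted p = 7.21e-08 and 3.19e-06 by edgeR). Words shared with other genes were searched for Zp1, Zp2 and Zp3 only, so misplaced reads between these paralogs were not checked. Umod, Tectb and Gp2, ZP-domain genes of kidney, ear and pancreas, had 0 RPF counts in all 11 libraries.

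The oocyte markers used as the yardstick were themselves mixed between stages. In the WT stage comparison without WT MII replicate 2, 5 of 15 tested fell and 7 rose, and in Nat10-ZcKO without GV replicates 1 and 2, 7 fell and 6 rose, beside 44.8% and 38.6% of all genes called. With all WT libraries edgeR called 0 of 15. Padi6 (-4.68 ± 0.42), Ooep (-3.92 ± 0.34), Nlrp5 (-3.76 ± 0.35), Zar1 (-3.69 ± 0.33) and Nlrp14 (-3.54 ± 0.36), which are maternal-effect genes or their kin, fell in WT. Mos, the kinase that holds the MII arrest, rose by 5.58 ± 0.38, Btg4, an adaptor of mRNA decay, by 3.19 ± 0.27, and Oosp1, Bcl2l10, Tcl1, H1foo and Gdf9 by 0.88 to 3.20. Padi6, the marker with the largest fall in both fits, was within 1 SE of Zp1 in WT (-4.68 ± 0.42 against -4.96 ± 0.36) and fell more than Zp1 in Nat10-ZcKO (-5.14 ± 0.59 against -4.62 ± 0.48), differences that were not tested. In Nat10-ZcKO with all 6 libraries edgeR called Mos (4.90 ± 0.997, adjusted p = 0.0145) and Btg4 (4.64 ± 0.98, adjusted p = 0.0165) and no other gene of the list. Dppa3 and Npm2 fell in Nat10-ZcKO without GV replicates 1 and 2 (-1.26 and -1.89). At GV, without the same libraries, Padi6 was at 1.02 ± 0.23 and Btg4 at -2.41 ± 0.47 in Nat10-ZcKO against WT, with 1 Nat10-ZcKO library. These genes belong to the list by which the libraries were left out, so their changes are not independent of that choice.

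Cumulus genes moved with stage as well. Ptx3 and Tnfaip6, matrix genes of the expanded cumulus, had 0 counts in all WT GV libraries against 285 and 75 in WT MII replicate 1. The Nat10-ZcKO MII libraries held 62 to 221 and 31 to 83 counts of them. Amh, a granulosa gene, had 60, 93 and 63 counts in WT GV and 1 in WT MII replicate 1. Of the granulosa and cumulus list, 4 of 12 tested rose and 2 fell in WT without WT MII replicate 2 (Ptx3, Tnfaip6, Ptgs2 and Serpine2 against Amh and Inha), and 3 of 11 rose and 3 fell in Nat10-ZcKO without GV replicates 1 and 2, where 44.8% and 38.6% of all genes were called. With all WT libraries edgeR called 0 of 8. Inhba, a granulosa gene, changed by -1.28 in Nat10-ZcKO without GV replicates 1 and 2. The muscle gene Myl9 was called in the interaction over all 11 libraries (-11.0, adjusted p = 0.0231 by edgeR). Myl9 had 27, 4 and 2 counts in Nat10-ZcKO GV and 2 in WT MII replicate 1. In every other Ribo-seq library it was at 0, so the size of this change is no bound. With all 6 Nat10-ZcKO libraries Ptx3, Tnfaip6, Amh, the adipocyte gene Fasn and the muscle gene Myh11 were called by edgeR. Their part in the zona values was not tested; the summed share of the list was 0.355% to 0.543% in WT GV and 0.632% in WT MII replicate 1.

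In acRIP-seq an antibody to N4-acetylcytidine (ac4C), the base that NAT10 makes, pulls down mRNA fragments, and the IgG library gives the background. With 1 library per antibody, the ratio compares these libraries only and no test was made. The anti-IgG library held 281, 261 and 201 counts of Zp1, Zp2 and Zp3 out of 116232, and the anti-ac4C library 1219, 2210 and 1689 out of 970997. In CPM this is 2418 in IgG against 1255 in ac4C for Zp1, 2246 against 2276 for Zp2 and 1729 against 1739 for Zp3. The ac4C/IgG ratio was 0.519 (exact 95% interval 0.456 to 0.593) for Zp1, 1.01 (0.891 to 1.16) for Zp2 and 1.01 (0.869 to 1.17) for Zp3. The ratio of Zp1 was below 1 beyond counting error, as a ratio below 1 was found for 43.1% of the 4314 genes with at least 50 counts, and those of Zp2 and Zp3 included 1.

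The rule of the study takes a ratio above 2 as a mark of ac4C; how the libraries were scaled for it is not given in the sources used here. Per library total, 0 of the 3 zona genes passed it, where 27.1% of 4314 genes with at least 50 counts did. As a plain ratio of counts, with no scaling, the values were 4.34, 8.47 and 8.40, and all 3 would pass. The median ratio of those genes was 1.15. Of them 15.6% had a lower ratio than Zp1, 43.8% a lower one than Zp2 and 43.3% a lower one than Zp3. The Zp1 ratio was 0.512 (0.425 to 0.618) times that of Zp2 and 0.516 (0.422 to 0.631) times that of Zp3, values that do not depend on library scaling, and Zp2 and Zp3 differed by a factor of 1.01 (0.825 to 1.23). Cytosine made up 30.7% of the Zp1 CDS, 24.3% of that of Zp2 and 30.4% of that of Zp3. The median over 21860 genes was 25.6%. These values leave out the UTRs, and the part of base content in the ratios was not tested.

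Other oocyte genes were also low in the ac4C library. The 16 markers had a median ratio of 0.634, 10 of them were below 1 and 1 was above 2. Gdf9 and Padi6 were at 0.407 and 0.488, Bmp15 at 2.46. Summed, the 16 markers took 6.08% of the IgG and 3.66% of the ac4C library. If the rows that name no gene are counted in the totals, which are 46.7% (fragments on no feature) of the IgG and 17.1% of the ac4C library, the ratios become 0.806, 1.57 and 1.56, so whether Zp2 and Zp3 stand at or above 1 rests on the total taken, and none passes 2 with either total. Per length of exon, the level of Zp1 in IgG (4070.4 TPM) was close to that of Zp3 (4359.7 TPM) and above that of Zp2 (2749 TPM), unlike the RPF order in WT GV, where Zp1 was lowest.

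**Figure D5:**
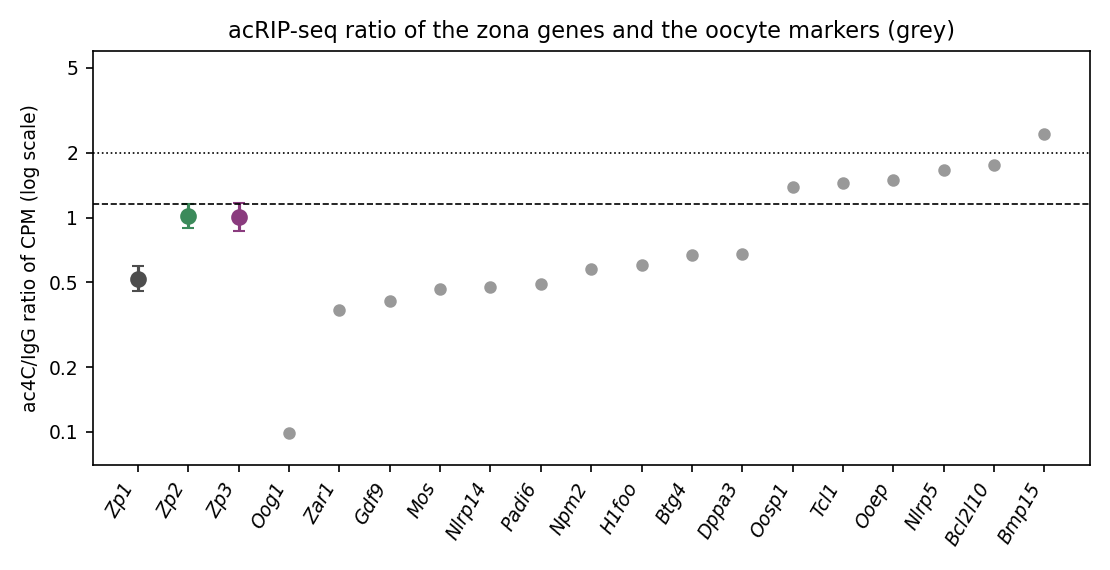
ac4C/IgG ratio of CPM in acRIP-seq, on a log scale, for Zp1, Zp2 and Zp3 with exact 95% counting intervals and for 16 oocyte markers (grey points, in rising order). The dotted line is the ratio of 2 used by the study and the dashed line the median of 4314 genes, 1.15; Zp1 lies at 0.519 and Zp2 and Zp3 at 1.01.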

How the data were processed

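Ribo-seq measured RPFs in 11 libraries of mouse oocytes and acRIP-seq measured precipitated RNA in 2. The authors deposited counts per Ensembl gene for each library, as whole numbers without normalization. The methods of the study describe RPFs from RNase I digestion after cycloheximide, with inserts of 15 to 35 bp and 18 PCR cycles. Molecular identifiers are not mentioned, so a count is a sequenced fragment. The submitters' processing notes name cutadapt, STAR, HTSeq and the build mm10 (GRCm38), with no versions or roles; strand settings are not given in the sources used here. Totals were 4815 to 279464 in Ribo-seq, 116232 in anti-IgG and 970997 in anti-ac4C, without rows that name no gene (46.7% and 17.1% on no feature, 0.392% and 0.750% ambiguous). Of 22442 IDs, 22399 matched a symbol and 83 genes had no CDS length. The acRIP-seq tables list 21898 genes.

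Groups came from the labels. The test was the quasi-likelihood test of edgeR 4.0.16 under R 4.3.3, after filterByExpr and TMM scaling, by glmQLFit and glmQLFTest, Benjamini-Hochberg adjustment and a threshold of 0.05, in 5 comparisons (genotype at GV and at MII, stage in WT and in Nat10-ZcKO, and their interaction), each on its own libraries. The SE is the size of the log2 change divided by the root of F. CPM and TPM were computed from the counts with gene totals and CDS length, and intervals are Clopper-Pearson at 95%. The alternatives were DESeq2 1.42.0, library size in place of TMM, no filter on low counts, a replicate block, 1 fit of all 11 libraries, each replicate left out, and the 3 libraries low in oocyte markers left out. In simulated data with 8-fold changes and a dispersion of 0.1, below the common dispersion of 0.289 to 0.393 fitted in these comparisons, so that power is overstated, the edgeR step recovered 112 of 112 changed genes at GV (1685 genes tested), 117 of 128 at MII (2180), 111 of 136 for the WT stage change (2320) and 132 of 132 for the Nat10-ZcKO stage change (2390). Python 3.11.15 with scipy 1.17.1 and matplotlib 3.10.9 did the rest. The members and gene lists were chosen with earlier results of these data known. By rule the text names the members, listed genes with an adjusted p-value under the threshold in any comparison, the gene of each list with the most RPFs and the 3 genes most correlated with each member; the other genes and markers named for being at 0 were picked after their values were seen.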

Additional observations from a re-analysis of the deposited data

How the results depend on the processing

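The 3 libraries were picked by their share of oocyte markers in these same data. The alternatives that left them out together with library-size scaling or DESeq2 were also chosen after seeing the data. Of the tests of the 3 genes under all alternatives, 161 kept direction and side of the threshold, 38 newly passed it and 17 turned direction. None of the 3 genes was called in the fits reported with all libraries, so no call could be lost. At GV the genotype change turned without the 3 libraries, to 0.30, 1.12 and 1.08 for Zp1, Zp2 and Zp3 (0.087, 0.90 and 0.86 with library size only, 0.33, 1.14 and 1.11 with DESeq2). The WT stage change passed the threshold with DESeq2 (-5.93, -6.75 and -6.35), with library size only (-5.17, -5.99 and -5.58), and without the 3 libraries (-4.96, -5.67 and -5.25; library size only -5.05, -5.77 and -5.34; DESeq2 -4.84, -5.56 and -5.13). The Nat10-ZcKO stage change passed it without the 3 libraries (-4.62, -5.82 and -5.74; library size only -4.30, -5.52 and -5.41; DESeq2 -4.69, -5.89 and -5.81), and with DESeq2 on all libraries for Zp1 (-3.19) and Zp3 (-4.26). The interaction without the 3 libraries turned for Zp3 (-0.31; library size only -0.0498; DESeq2 -0.41) and, with DESeq2, for Zp2 (-0.069). The cause was not tested.

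Counts of called genes moved more. At GV they were 0 in the fit reported, 13 with DESeq2, 41 without a filter, 23 in 1 fit of all libraries, and 78, 83 (library size only) and 28 (DESeq2) without the 3 libraries. At MII they were 4, then 34 with DESeq2, 44 with library size only, 0 without a filter and 19 in 1 fit of all libraries, and 6, 7 (library size only) and 2 (DESeq2) without the 3 libraries. For the WT stage the same settings gave 6, then 411, 997, 0 and 60, and 1463, 1493 and 531. For the Nat10-ZcKO stage they were 368, and 1445, 1296 and 686 without the 3 libraries. For the interaction they were 31, 51 with DESeq2, 48 with library size only, 10 without a filter, and 0 in each fit without the 3 libraries.

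With each replicate left out in turn, Zp1, Zp2 and Zp3 ranged from -3.17 to -0.46, -3.07 to 0.26 and -3.05 to 0.22 for genotype at GV, from 0.70 to 7.999, 1.09 to 8.96 and 0.71 to 8.78 for genotype at MII, from -12.28 to -4.96, -13.64 to -5.67 and -13.41 to -5.25 for the WT stage, from -4.08 to -0.75, -5.21 to -1.24 and -5.13 to -1.22 for the Nat10-ZcKO stage, and from 1.79 to 9.27, 1.37 to 9.48 and 1.02 to 9.33 for the interaction. The values largest in size at MII, in the WT stage and in the interaction came without WT MII replicate 1. There WT MII is only the library at 0, so the fitted value rests on the prior count. Called genes ranged from 0 to 380 (GV), 0 to 1451 (MII), 37 to 1902 (WT stage), 0 to 780 (Nat10-ZcKO stage) and 0 to 1209 (interaction). Without Nat10-ZcKO MII replicate 1, 2 or 3 the Nat10-ZcKO stage had 0 calls, with 730, 836 and 700 genes at an unadjusted p under 0.05 by edgeR.

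The replicate numbers were not taken as pairs. After the group mean of each gene was subtracted, same-numbered libraries of 2 groups correlated at -0.04 to 0.15. With 2 or 3 libraries a group, this check cannot settle whether they were paired. With a replicate block the changes of Zp1, Zp2 and Zp3 were -2.51, -2.39 and -2.26 at GV, 1.83, 2.37 and 2.21 at MII, -6.33, -7.24 and -6.93 for the WT stage, -1.55, -1.94 and -1.95 for the Nat10-ZcKO stage and 3.44, 3.30 and 3.02 for the interaction. The block changed no call of the 3 genes and gave 0, 0, 0, 194 and 8 called genes in these comparisons.

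Without division by length the log2 ratios in WT GV were 1.34 for Zp2 to Zp1, 1.12 for Zp3 to Zp1 and -0.22 for Zp3 to Zp2, against 1.12, 1.69 and 0.57. The ac4C/IgG ratios of Zp1, Zp2 and Zp3 were 4.34, 8.47 and 8.40 unscaled, and 0.806, 1.57 and 1.56 with all rows in the totals. Depth limits the MII values, which rest on 18 to 98 counts a gene.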
